A study of Mus musculus with 6 samples.

Results

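The transcripts described here are 10 genes of iron handling in mouse liver: the hepcidin genes Hamp and Hamp2, the transport and uptake genes Trf, Tfrc, Tfr2 and Hfe, the iron exporter gene Slc40a1, the ferritin genes Fth1 and Ftl1, and Cp. They were chosen by gene name, and all 10 were found among the 54320 genes of the deposited tables. Liver RNA came from 6 C57BL/6 mice aged 11 weeks, all fed for 3 weeks a diet that the labels call MCD. The control group, called flox here, held 3 mice with the genotype HuR flox/flox. The knockout group, called HKO, held 3 mice with the genotype HuR HKO (HuRflox/flox Alb-Cre+/-), so both groups carried the floxed alleles and the HKO mice also carried a Cre transgene under the albumin promoter. That promoter is active in hepatocytes. HuR is an RNA-binding protein encoded by Elavl1, and which liver cells lost or kept it was not measured here. The labels name each library as a separate sample and give no litter, batch or date. The comparison of the genotypes asks which of these transcripts differ between livers of these labelled genotypes, on this diet only.

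Iron travels in blood bound to transferrin and enters cells through transferrin receptor 1. Surplus iron is stored inside ferritin, and it leaves cells through ferroportin, the Slc40a1 product. Hepatocytes secrete hepcidin, a peptide hormone that binds ferroportin and causes its breakdown. Hepcidin transcription is raised by iron, through BMP ligands and SMAD proteins, and by inflammation, through IL-6 and STAT3. Inside cells, iron regulatory proteins bind stem-loops called iron-responsive elements. Bound in the 5′ UTR they block translation of ferritin and ferroportin mRNA, and bound in the 3′ UTR they protect the mRNA of transferrin receptor 1 from decay. Transcript levels, as measured here, therefore do not give the translational arm of this control.

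Stretches with the shape of an iron-responsive element are shown because they mark which of the 10 genes could carry such an element. UTRs of protein-coding transcripts in GENCODE M21 (GRCm38) were searched on the sense strand for 17 bases made of C, then NNNNN, then CAGTGN with the last base not G, then NNNNN that pairs base by base with the first NNNNN, G-T pairs allowed. Such a stretch was in the 5′ UTR of 0.110% of 20916 genes and in the 3′ UTR of 0.475% of 21045 genes. Of the 10 genes 4 held one, with 7 stretches in all. Capitals mark the loop, and a match describes the letters and not binding.
Fth1, 5′ UTR, exon 1, chr19:9982738-9982754, plus strand: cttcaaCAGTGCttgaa
Ftl1, 5′ UTR, exon 1, chr7:45459785-45459801, minus strand: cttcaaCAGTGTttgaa
Slc40a1, 5′ UTR, exon 1, chr1:45925471-45925487, minus strand: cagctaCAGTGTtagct
Tfrc, 3′ UTR, exon 19, chr16:32631225-32631241, plus strand: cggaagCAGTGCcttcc
Tfrc, 3′ UTR, exon 19, chr16:32631604-32631620, plus strand: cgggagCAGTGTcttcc
Tfrc, 3′ UTR, exon 19, chr16:32631669-32631685, plus strand: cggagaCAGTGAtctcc
Tfrc, 3′ UTR, exon 19, chr16:32631716-32631732, plus strand: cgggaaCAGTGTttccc
The Fth1 and Ftl1 stretches share both stem arms and differ in the last base of the loop. All 4 stretches of Tfrc lie in exon 19. Not every transcript held a stretch: it was in 4 of 5 coding transcripts of Fth1, 1 of 2 of Ftl1 and 1 of 4 of Slc40a1. Each stretch of Tfrc was in 1 of 3.

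The hepcidin promoters are shown because Hamp and its tandem copy Hamp2 differ there at the letters through which BMP signals are known to act. Windows of 250 bases before to 50 bases after the start site (RefSeq, GRCm38.p6) were present for 8 of the genes, 13 windows in all. They were searched on both strands for GGCGCC, the core of the BMP-responsive element of hepcidin promoters, and for TTCNNNGAA, the spaced palindrome of STAT factors. GGCGCC was in 11.9% and TTCNNNGAA in 8.30% of the 32851 windows of all genes. Among the iron genes GGCGCC was in the windows of Hamp and Tfrc, and TTCNNNGAA in those of Hamp and Hamp2. The 150 bases before each hepcidin start site follow, with the matches in capitals.
Hamp, chr7:30944030-30944179, minus strand: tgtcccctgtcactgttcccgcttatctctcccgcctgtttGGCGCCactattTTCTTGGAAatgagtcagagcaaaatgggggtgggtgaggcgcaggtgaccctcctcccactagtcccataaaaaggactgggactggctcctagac
Hamp2, chr7:30924182-30924331, minus strand: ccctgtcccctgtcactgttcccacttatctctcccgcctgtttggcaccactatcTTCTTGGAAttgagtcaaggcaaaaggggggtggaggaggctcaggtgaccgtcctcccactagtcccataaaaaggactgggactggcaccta
The Hamp and Hamp2 windows were identical at 92.9% of 297 aligned bases. Within the BMP box Hamp2 carried the substitution G4A, counted from the first base of GGCGCC in Hamp. Relative to the start site, the box of Hamp began at position -109 and its STAT-type match at -97.

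The libraries differed in ways that touch every result. Levels are FPKM, reads per kilobase of gene divided by a size factor of each library. That factor followed the median of ratios over the 6 libraries and not the total of assigned reads. Reads assigned to genes numbered 16769082 to 20633215 per library. Elavl1, the targeted gene, was not reduced under the HKO label: it averaged 2.95 ± 0.58 FPKM (SD, n = 3) in the flox libraries and 4.98 ± 0.75 in the HKO libraries, so every direction given here is between labels. Which exons Cre removes is not stated in the labels, and the level sums reads over the whole gene in every cell type. Flox 2 had reads in 16608 genes and 2.26% mitochondrial reads, against 19920 to 22067 genes and 4.34% to 4.69% elsewhere. Its log2 levels sloped with gene length by -0.14 per doubling, the slope of flox 1 was -0.04, and the other libraries lay between 0.04 and 0.05. Across genes, the HKO libraries correlated with flox 1 at r = 0.908 to 0.940, with flox 3 at 0.896 to 0.919 and with flox 2 at 0.828 to 0.870. Among the flox libraries r was 0.947 for flox 1 and 2, 0.897 for flox 1 and 3 and 0.811 for flox 2 and 3, so flox 2 and flox 3 were the least alike of all pairs. Results are therefore also given without flox 2 and without flox 3.

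No iron gene passed the test over all genes. Fold changes are HKO minus flox on the log2(FPKM + 0.5) scale, tested with limma across 13787 genes with Benjamini-Hochberg adjustment at 0.05. Of the 10 genes 0 passed, with adjusted p-values from 0.188 to 0.897, against 0.0145% of all genes tested. At an unadjusted p below 0.05 there were 3, namely Tfrc, Tfr2 and Hamp2, and 20.9% of all genes were below it. By sign 8 genes were lower and 2 higher in HKO, where 50.1% of all genes had a negative value. The median log2 fold change was -0.67, against 0.00 over all genes tested. On the deposited scale Fth1, Tfr2 and Cp were lower in every HKO library than in any flox library, and 16.7% of all genes showed this. As a share of assigned reads the groups of Fth1 and Cp overlapped, and those of Tfr2 did not. Tfrc alone was higher in every HKO library, against 15.3% of all genes.

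Hamp encodes hepcidin. The tables place it at chr7:30942368-30944032 on the minus strand (GRCm38.p6), with a gene length of 410 bases. Hepcidin transcript reached 3535, 5508 and 679 FPKM in flox 1, 2 and 3, in that order, against 1534, 548 and 775 FPKM in HKO 1, 2 and 3. Flox 1 and 2 stood above every HKO library, while flox 3 lay between HKO 2 and HKO 3, so the groups overlapped. The means were 3240 ± 2428 FPKM in flox (SD, n = 3) against 952 ± 516 in HKO. The log2 fold change was -1.45 ± 0.81 (SE), its 95% interval ran from -3.37 to 0.48, and limma's adjusted p was 0.324. Of all assigned reads, Hamp held 0.146% in flox 1, 0.202% in flox 2 and 0.0235% in flox 3, and 0.0252% to 0.0752% in the HKO libraries.

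Hamp2, the second hepcidin gene of the mouse, ran in parallel at a far lower level. It had 67.6, 123 and 15.4 FPKM in the flox libraries, against 21.0, 9.13 and 13.1 FPKM in HKO, where HKO 1 exceeded flox 3. Its log2 fold change was -1.86 ± 0.74 (SE, limma adjusted p = 0.230). Hamp2 amounted to 1.91% to 2.28% of the Hamp level in the flox libraries and 1.37% to 1.69% in the HKO libraries. These shares did not overlap, and the exact permutation test (two-sided) gave p = 0.1, as small as 3 against 3 can give. The promoter windows of the genes were aligned, but their transcripts were not. Reads could be split between the genes, which was not tested, and their sum had a log2 fold change of -1.46 (limma, adjusted p = 0.322).

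**Figure D1:**
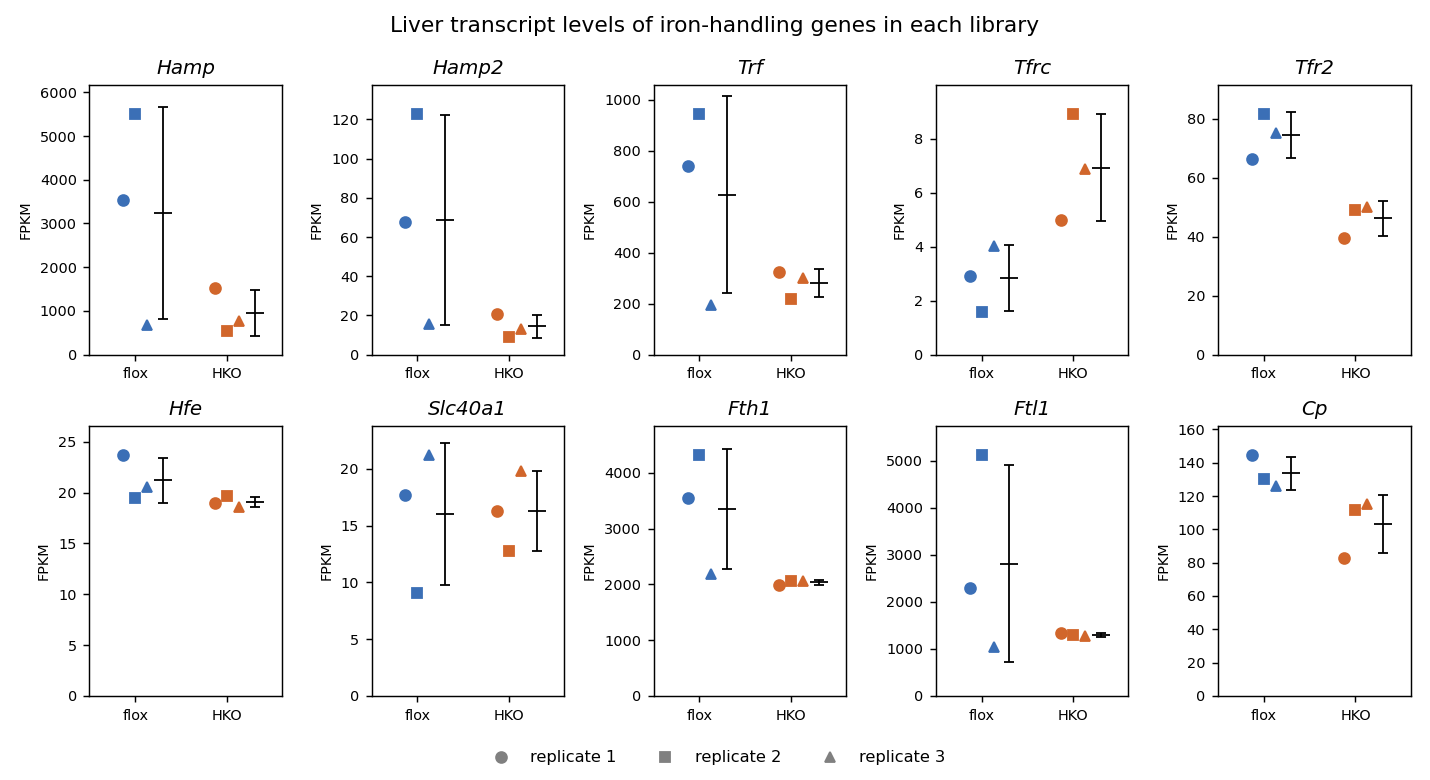
FPKM (vertical axes, linear from 0) of the 10 genes in 3 flox and 3 HKO libraries; symbols mark replicate numbers and black bars the mean ± SD. Flox 3 (blue triangle) sits among the HKO libraries for Hamp, at 679 FPKM, and apart from them for Tfr2, at 75.4 FPKM.

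Tfr2 and Hfe encode membrane proteins that sense transferrin iron upstream of hepcidin. Tfr2, the hepatocyte transferrin receptor 2, had 66.5, 81.7 and 75.4 FPKM for flox 1, 2 and 3, against 39.5, 48.9 and 50.1 FPKM in HKO. The groups did not overlap, and here flox 3 lay with flox 1 and 2. The means were 74.5 ± 7.68 FPKM (SD, n = 3) and 46.2 ± 5.81, and the log2 fold change was -0.69 ± 0.21 (SE), its 95% interval ran from -1.18 to -0.19, and limma's adjusted p was 0.191. Hfe, the gene of hereditary hemochromatosis, had 23.7, 19.4 and 20.5 FPKM in the flox libraries, against 19.0, 19.6 and 18.6 FPKM in HKO. Its groups overlapped at a log2 fold change of -0.14 ± 0.19 (SE, limma adjusted p = 0.646), and the 95% interval ran from -0.59 to 0.30.

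Trf encodes transferrin, the iron carrier of plasma, which hepatocytes secrete. It stood at 740, 944 and 196 FPKM in flox 1, 2 and 3, in that order, against 325, 220 and 300 FPKM in HKO. Flox 3 was the lowest of the 6 libraries, below every HKO library, while flox 1 and 2 were the highest. The log2 fold change was -0.89 ± 0.59 (SE), its 95% interval ran from -2.29 to 0.51, and limma's adjusted p was 0.389.

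Tfrc, the gene of transferrin receptor 1 and of 4 of the stretches printed above, went the other way. It had 2.90, 1.58 and 4.03 FPKM for flox 1, 2 and 3, against 4.97, 8.92 and 6.89 FPKM in HKO. Every HKO library was above every flox library, by the smallest margin between flox 3 and HKO 1. The means were 2.84 ± 1.23 FPKM (SD, n = 3) and 6.93 ± 1.98, with a log2 fold change of 1.19, an SE of 0.35 and a 95% interval of 0.35 to 2.04 (limma, adjusted p = 0.188). These values rest on 157 to 1141 reads per library. The level of Tfr2 was 18.7 to 51.8 times that of Tfrc in the flox libraries and 5.48 to 7.95 times in the HKO libraries, on the FPKM scale.

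The ferritin genes were the most abundant of the group with Hamp. Fth1, the heavy chain with ferroxidase activity, had 3553, 4316 and 2178 FPKM in flox 1, 2 and 3, in that order, against 1983, 2063 and 2067 FPKM in HKO. On the deposited scale all flox values exceeded all HKO values, but flox 3 did so narrowly. As a share of assigned reads the groups overlapped. Fth1 held 28902 of 18119468 reads in flox 3 and 34429 of 16769082 in HKO 1. The log2 fold change was -0.66 ± 0.31 (SE, limma adjusted p = 0.267), and its sign turned with quantile normalization, at 0.11. Ftl1, the light chain, had 2293, 5120 and 1030 FPKM in the flox libraries, against 1333, 1288 and 1264 FPKM in HKO, so flox 3 was the lowest of the 6. Its log2 fold change was -0.83 ± 0.55 (SE, limma adjusted p = 0.393). The HKO libraries agreed closely, with SDs of 47.7 FPKM around 2038 for Fth1 and 35.2 FPKM around 1295 for Ftl1.

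The ratio of light to heavy chain transcripts was 0.645, 1.19 and 0.473 in flox 1, 2 and 3 and 0.611 to 0.672 in HKO, on the FPKM scale. Flox 2 was the 1 library with more Ftl1 than Fth1 per length. Both genes have processed copies elsewhere in the genome. Summing the copies named in the tables with each gene gave log2 fold changes of -0.66 for Fth1 and -0.83 for Ftl1.

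Slc40a1 encodes ferroportin, the iron exporter that hepcidin removes, and is abundant in Kupffer cells. It had 17.7, 9.06 and 21.2 FPKM for flox 1, 2 and 3, against 16.3, 12.7 and 19.8 FPKM in HKO. The groups overlapped, with flox 2 the lowest and flox 3 the highest library. The log2 fold change was 0.08 ± 0.36 (SE), its 95% interval ran from -0.76 to 0.93, and limma's adjusted p was 0.897, and its sign turned under several alternatives. Cp encodes ceruloplasmin, the copper ferroxidase of plasma, an acute-phase protein. It had 145, 130 and 126 FPKM in the flox libraries, against 83.0, 112 and 115 FPKM in HKO, without overlap on the deposited scale. As a share of assigned reads the groups overlapped. Cp held 18470 of 18119468 reads in flox 3 and 22117 of 18406482 in HKO 2. The log2 fold change of Cp was -0.38 ± 0.22 (SE, limma adjusted p = 0.333), and 0.13 with quantile normalization.

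Ordered by their mean over the 6 libraries, the levels were 2693 FPKM for Fth1, 2096 for Hamp, 2055 for Ftl1, 454 for Trf, 118 for Cp, 60.4 for Tfr2, 41.5 for Hamp2, 20.2 for Hfe, 16.1 for Slc40a1 and 4.88 for Tfrc. In HKO alone Ftl1 had a higher mean than Hamp, at 1295 against 952 FPKM, and Hamp2, at 14.4 FPKM, lay below Hfe at 19.1 and Slc40a1 at 16.3. Over the 6 libraries the ranges of Fth1, Hamp and Ftl1 overlapped, as did those of Hamp and Trf, and of Hfe and Slc40a1. The range of Hamp2 overlapped those of Cp, Tfr2, Hfe and Slc40a1. Flox 2 had the highest value of the 6 libraries for 6 of the 10 genes, and flox 3 the lowest flox value for 6.

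**Figure D2:**
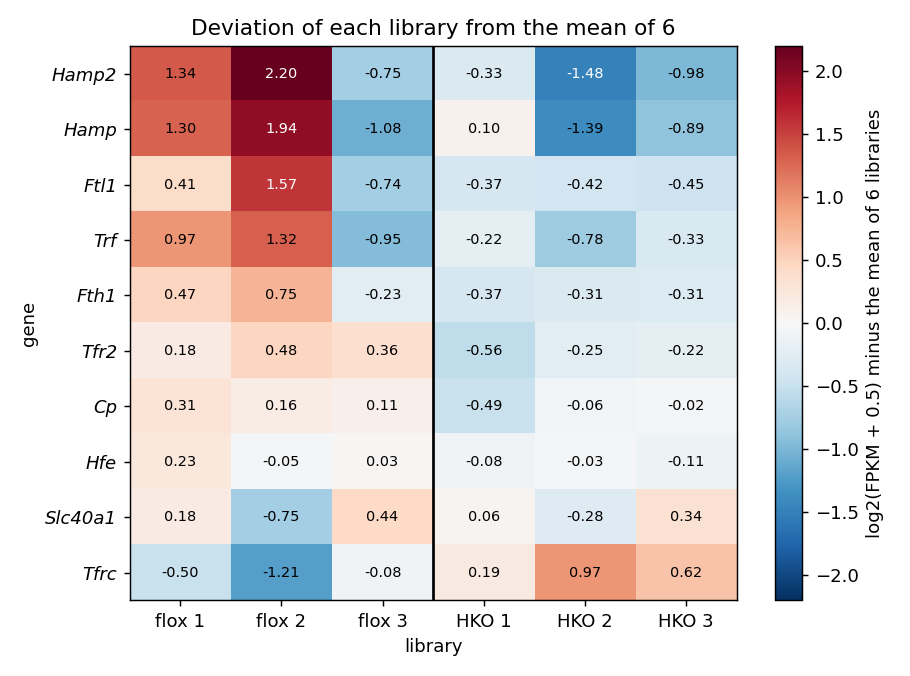
Difference of each library (columns) from the mean of the 6 libraries on the log2(FPKM + 0.5) scale, for the 10 genes (rows); red is above and blue below that mean, and the black line divides flox from HKO. Hamp lies at 1.30, 1.94 and -1.08 in flox 1, 2 and 3, and Tfrc at -0.50, -1.21 and -0.08.

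Without flox 3, 7 of the 10 genes passed over all genes, and without any other single library 0 did. The number called over all genes rose from 2 to 5575 at the same time. Flox 3 lay nearer to HKO than flox 1 and 2 did for Hamp, Hamp2, Trf, Fth1, Ftl1 and Tfrc, so leaving it out widens those differences by construction, and the values without it are a description. Hamp, Hamp2, Trf, Tfr2, Fth1 and Ftl1 were lower in HKO, against 19.4% of all genes, and Tfrc was higher, against 21.0%. In that comparison 40.4% of all genes passed in either direction. Hamp then had a log2 fold change of -2.35 (limma, adjusted p = 0.0173), Hamp2 of -2.70 (adjusted p = 0.0147), Trf of -1.59 (adjusted p = 0.0147) and Ftl1 of -1.40 (adjusted p = 0.0265). Fth1 had -0.94 (adjusted p = 0.0162), Tfr2 -0.68 (adjusted p = 0.0368) and Tfrc 1.45 (adjusted p = 0.0206). Flox 1 and 2, the flox libraries left, are those whose levels fell with gene length. With each library's length trend removed as well, 8 of the 10 passed, the 7 and Cp, against 33.4% of all genes. The log2 fold changes were then -2.04 for Hamp, -2.32 for Hamp2, -1.51 for Trf, -0.76 for Tfr2, -0.53 for Fth1 and 1.16 for Tfrc.

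Gene length touches these genes unevenly, since Hamp, Hamp2 and Fth1 are 410, 583 and 866 bases long and Cp and Slc40a1 9566 and 9000. With the length trend removed and all 6 libraries kept, 0 of the 10 passed. Hamp then had a log2 fold change of -1.22, Hamp2 of -1.59, Fth1 of -0.37 and Ftl1 of -0.55 (limma, adjusted p = 0.360, 0.242, 0.337 and 0.473). Those of Tfr2 and Tfrc were -0.74 and 1.0, while Cp moved from -0.38 to -0.71 and Slc40a1 from 0.08 to -0.23. Without flox 2 the fold changes were smaller in size for Hamp (-0.84), Hamp2 (-1.22), Ftl1 (-0.25), Trf (-0.45), Fth1 (-0.45) and Tfrc (0.89). Tfr2 changed little, to -0.62, and Cp, Hfe and Slc40a1 had -0.40, -0.20 and -0.27. With quantile normalization the fold changes were -0.93 for Hamp, -0.39 for Trf, -0.27 for Tfr2 and -0.19 for Ftl1. With scaling to total assigned reads the fold changes were -1.15 for Hamp, -1.57 for Hamp2, -0.59 for Trf and -0.53 for Ftl1. Under that scaling Tfr2 had -0.39, Fth1 -0.36, Cp -0.084, Hfe 0.15, Slc40a1 0.37 and Tfrc 1.46. The median of all genes was then 0.25.

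**Figure D3:**
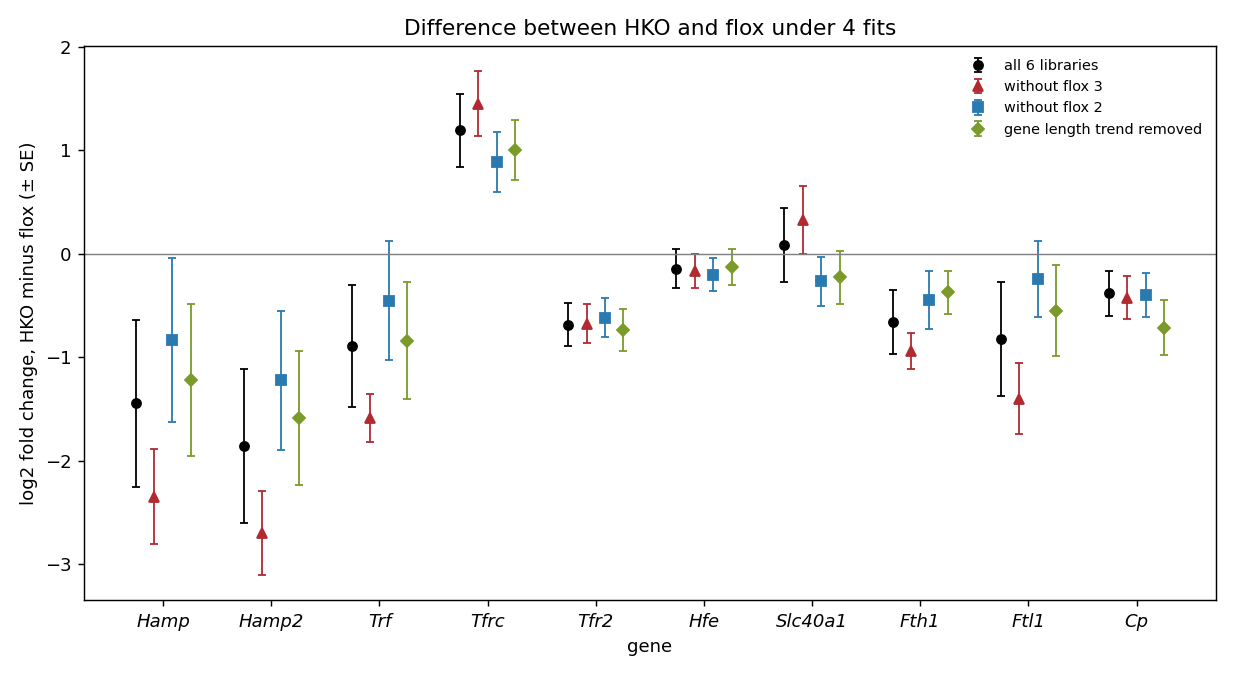
Log2 fold change, HKO minus flox, with its SE (vertical axis) for the 10 genes under 4 fits: all 6 libraries, without flox 3, without flox 2, and with the gene length trend removed. Over these 4 fits Tfr2 lies between -0.62 and -0.74 and Hamp between -0.84 and -2.35; Tfr2 at -0.27 with quantile normalization is not drawn.

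Of other genes in the pathway, 0 of 53 tested passed over all genes (limma), in 3 lists of iron and heme genes, and voom on the recovered reads also called 0. At an unadjusted p below 0.05 there were 2, 4 and 4 in the lists of hepcidin control, cellular iron and heme, where 20.9% of all genes were below it. The list of hepcidin control (BMP ligands, receptors, SMADs and their modifiers) had 13 of 22 tested genes with positive values and a median log2 fold change of 0.22. Atoh8, a transcription factor of the BMP response, had 24.7, 32.1 and 15.8 FPKM in flox 1, 2 and 3, in that order, against 7.40, 8.14 and 8.35 FPKM in HKO, without overlap, at -1.49 (limma, adjusted p = 0.151). Smad5, a BMP signal transducer, had 3.19 ± 1.49 FPKM in flox (SD, n = 3) against 6.24 ± 0.38 in HKO, and the activin receptor gene Acvr2a had 0.08 FPKM in flox 2 but 4.53 in flox 3, next to 4.24 to 5.18 in HKO. Atoh8, Smad5 and Acvr2a were named for their small p-values. In the whole list 2 of 22 tested genes were higher and 2 lower in HKO without overlap, where 15.3% and 16.7% of all genes were. Without flox 3, 9 of the 22 were higher and 3 lower past the threshold, where 21.0% of all genes were higher and 19.4% lower.

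The list of cellular iron uptake, storage, release and sensing had 12 of 18 tested genes with positive values and a median of 0.42. Its smallest p-values were for genes that were lower in HKO. Slc25a28, the mitochondrial iron importer mitoferrin 2, had 27.6, 51.5 and 40.6 FPKM in the flox libraries, against 17.0, 11.8 and 12.6 FPKM in HKO, at -1.47 (limma, adjusted p = 0.157). Slc11a1, a metal transporter of macrophage phagosomes, had 14.7 ± 6.47 FPKM in flox (SD, n = 3) against 5.28 ± 1.28 in HKO. Mcoln1, a lysosomal channel that passes iron, had 6.33 ± 0.50 and 3.94 ± 0.35 FPKM. The groups of all 3, named for their small p-values, did not overlap. Over the list 5 of 18 tested genes were higher and 3 lower in HKO without overlap, where 15.3% and 16.7% of all genes were. Without flox 3, 7 of the 18 were higher and 4 lower past the threshold, beside the same 21.0% and 19.4% of all genes.

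The list of heme uptake, transport and breakdown had 9 of 13 tested genes with negative values and a median of -0.50. Hpx, the plasma heme carrier hemopexin, had 9752 ± 2671 FPKM in flox (SD, n = 3) against 1773 ± 121 in HKO, at a log2 fold change of -2.42 (limma, adjusted p = 0.0984). Hp, which encodes the hemoglobin scavenger haptoglobin, had 7164 ± 1259 and 3052 ± 396 FPKM. Hmox1, the heme oxygenase that frees iron from heme, had 73.8, 75.4 and 40.8 FPKM in the flox libraries, against 31.5, 21.0 and 26.4 FPKM in HKO, without overlap, at -1.22 (limma, adjusted p = 0.167). Hpx, Hp and Hmox1 were named for their small p-values. In the whole list 0 of 13 tested genes were higher and 5 lower in HKO without overlap, where 15.3% and 16.7% of all genes were. Without flox 3, 7 of the 13 were lower and 1 higher past the threshold, beside 19.4% and 21.0% of all genes.

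**Figure D4:**
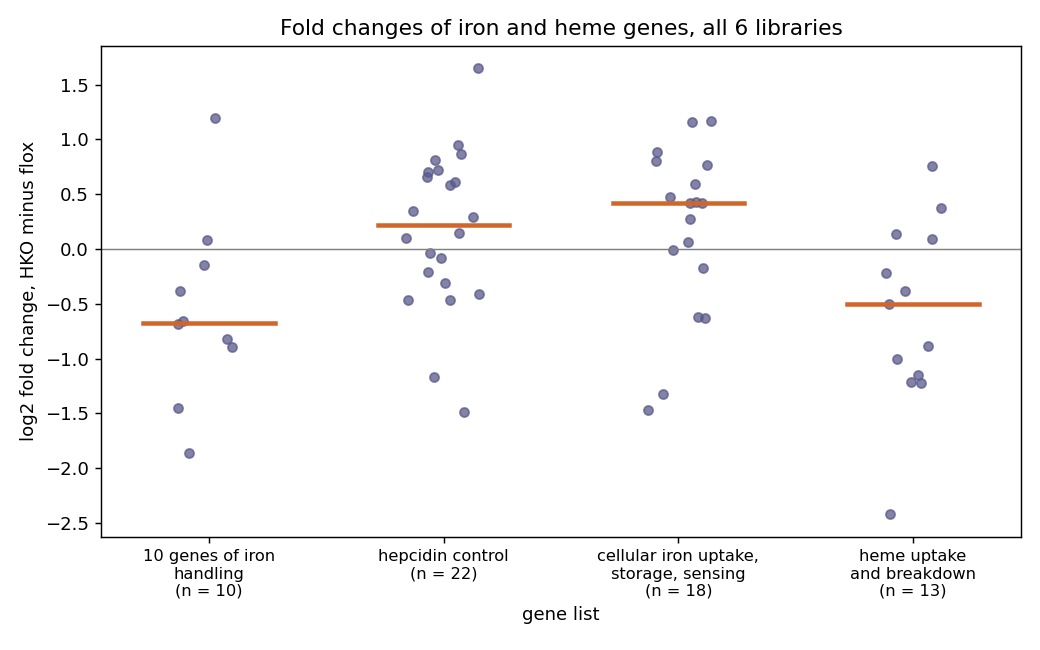
Log2 fold changes, HKO minus flox, of single genes (points) in the group of 10 and in 3 lists of related genes, with the median of each as an orange bar. The medians are -0.67, 0.22, 0.42 and -0.50 from left to right, and no point passed over all genes.

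In bulk tissue, fewer cells of a type and less RNA per cell cannot be told apart, and the other cells of the liver supply part of these transcripts. Kupffer cell and macrophage markers summed to 1149 to 2368 FPKM in flox and 639 to 954 FPKM in HKO, with 9 of 12 markers lower without overlap, where 16.7% of all genes were. Neutrophil markers summed to 24.7 to 55.4 FPKM in flox and 4.39 to 6.31 FPKM in HKO, with 4 of 9 tested and Ly6g at 0 in every library. Their part in the values of Slc40a1, Slc11a1 and Hmox1 was not tested. Erythroid markers, of cells rich in Tfrc, summed to 217 to 789 FPKM in flox, highest in flox 2, and to 241 to 346 FPKM in HKO, with Epb42 at 0. Hepatocyte markers summed to 53741 to 67922 FPKM in flox and 53675 to 65982 in HKO. Of these 9 markers 7 had negative values, 3 were lower without overlap, and the median log2 fold change was -0.27. Sinusoidal endothelial markers summed to 100.3 to 163 and 81.0 to 107 FPKM, and stellate markers to 108 to 121 and 115 to 123 FPKM. Pancreatic acinar markers summed to 5.50 to 13.2 FPKM in flox and to 13.6, 130 and 13568 FPKM in HKO 1, 2 and 3. HKO 3 thus held pancreatic transcripts, and HKO 2 held them at a far lower level that was still above every flox library. Of these 10 markers 9 were higher in HKO without overlap, where 15.3% of all genes were. Without HKO 3 the log2 fold changes were -1.37 for Hamp, -0.75 for Tfr2 and 1.18 for Tfrc.

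The genes most like Hamp across the 6 libraries were Gatc, Acvrl1, Plcb2, Syde1 and Swsap1, with Pearson's r of 0.999, 0.997, 0.993, 0.993 and 0.992 on the log2(FPKM + 0.5) scale. Of 10277 protein-coding genes compared, 222 had r above 0.95. With 6 libraries, and with flox 1 and 2 apart from the rest, such values are a description only. Acvrl1, a receptor of the BMP family, had 3.48, 4.06 and 1.47 FPKM for flox 1, 2 and 3, against 2.27, 1.25 and 1.43 FPKM in HKO. Pearson's r does not compare the size of a change. Gatc, with the highest r, ranged only from 13.1 to 16.4 FPKM, while Hamp ranged from 548 to 5508 FPKM.

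Genes that overlap these ones stood at low levels. The lincRNA Gm44662, which overlaps both hepcidin genes on the opposite strand, was at 0 in every library, and Hps3, which overlaps Cp on the opposite strand, had 0.76 to 1.65 FPKM. Ftl1 is overlapped on the opposite strand by Gm10252, at 0 to 0.86 FPKM. On the same strand, the protein-coding gene Gm20425 overlaps Trf and the miRNA gene Gm22133 overlaps Ftl1, both at 0 in every library. Whether reads shared by overlapping genes were lost in counting was not tested.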

How the data were processed

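Liver RNA of 6 mice was sequenced, and the authors deposited FPKM values in 1 table per group, with gene name, position and length. TopHat2, HTSeq 0.6.1 and the build GRCm38.p6 appear in the submitters' processing notes, and use of strand in counting is not given in the sources used here. FPKM times gene length gave whole multiples of 1 read for 100% of values above 0 (tolerance 0.01 of a read), from which reads were recovered. The scale of the deposited FPKM was proportional to median-of-ratios factors over all 6 libraries, so both tables share 1 scale. The mice are separate samples per the labels, and p-values measure the spread between these samples.

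The 13787 genes that averaged at least 0.5 FPKM were fitted as log2(FPKM + 0.5) with limma 3.58.1 in R 4.3.3 (group model, mean-variance trend, prior degrees of freedom 2.76, two-sided), and all p-values were adjusted by Benjamini-Hochberg over all genes tested. The added 0.5 understates changes of low genes. The code was tested on simulated data whose spread within groups was set below the measured one, so that test does not give the power at the spread of these libraries. The members and lists were chosen with earlier results of these data known. All members are named, with the 3 genes of smallest p from each pathway list, the 5 most like Hamp, and Elavl1. Hamp, ferritin and other values under alternatives (pseudocount, filter, scaling, moderation, replicate block, voom, length trend by lowess with span 0.3, libraries left out) are in the closing section. Length correction combined with the block or with a library left out was chosen after seeing the data. Same-numbered libraries did not deviate together (r of -0.04, -0.09 and 0.07), so replicate numbers were not used as pairs.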

Additional observations from a re-analysis of the deposited data

How the results depend on the processing

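No member passed under any of the alternatives that kept flox 3, which covers the pseudocounts, filters, scalings, moderations, voom and a threshold of 0.1. Leaving out 1 library gave 0 to 7 members, 0 to 5575 genes in all and 0 to 31 pathway genes past the threshold (limma), where each highest count is the one without flox 3. With the length trend removed and without flox 3 the counts were 8 members, 4602 genes and 26 pathway genes. With the replicate block 0 members and 1 gene in all passed, and with the block and length correction 1 gene. Without flox 1 or HKO 2 the count over all genes was 0, and without HKO 3 it was 1. A threshold of 0.1 gave 16 genes and 1 pathway gene.

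Scaling to total assigned reads moved the median log2 fold change of all genes to 0.25 and upper quartile scaling to -0.12. Quantile normalization turned Fth1 to 0.11, Cp to 0.13 and Hfe to 0.074, and scaling to total reads turned Hfe to 0.15, below the shift of all genes. Slc40a1 turned to -0.048 with upper quartile scaling, -0.23 with length correction (with the block too), -0.27 to 0.32 over the fits without 1 library (negative without flox 2 or HKO 3, where it was -0.065), and -0.42 and -0.17 with length correction and without flox 2 or flox 3. The cause was not tested. Hamp, Hamp2, Trf, Ftl1, Tfr2 and Tfrc kept their sign under every alternative run, with Hamp at -2.35 to -0.74, Hamp2 at -2.70 to -1.09, Trf at -1.59 to -0.39, Ftl1 at -1.40 to -0.093, Tfr2 at -0.82 to -0.27 and Tfrc at 0.79 to 1.46. The lowest read number behind a member's value was 110.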
